A study of Eriocheir sinensis with 6 samples.

Results

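A group of 135 genes of mid-level expression was examined that stayed steady between the post-molt and the pre-molt muscle of the crab Eriocheir sinensis, the Chinese mitten crab. The members were chosen by their measured values: the mean of the 6 deposited FPKM values, which scale fragments by gene length and by a library size, had to lie from 50 to 500, and their standard deviation over that mean (SD over mean) had to be 0.2 or less. Genes on 5 chromosomes, CM024112.1, CM024108.1, CM024135.1, CM024166.1 and CM024162.1, were left out. Of the 18729 genes listed, 1125 were mid-level genes outside these chromosomes, and 135 of them (12%) met the limit on the spread. Since all 6 values of both stages chose the members, their levels, spreads and stage ratios are given as a description, with no test.

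RNA-seq was performed on muscle of the walking legs of healthy juvenile crabs in 2 stages, post-molt, when the old shell has been shed, and pre-molt, when it is still worn. Each stage had 3 libraries, and per the study's methods each sample came from 1 crab. The labels give a body weight of 8.41 ± 1.47 g and a water temperature of 20 °C. Both stages were untreated and no allele is named in the labels, so stage was the only labelled difference. The methods name male crabs for the molt period and were not taken to state the sex for these 6 libraries.

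Crustaceans grow by shedding their shell, and the muscle of their limbs is remodelled around each molt. Genes of steady level serve as reference genes, against which a change in other genes is measured, for example by RT-qPCR. A gene is steady only relative to a scaling of the libraries: when a few abundant genes take up more of a library, the share left for every other gene falls, and methods that scale by the total and methods that scale by typical genes then give different answers. Of the gene IDs, 0 were found in the reference gene table, and the deposited gene names held only prediction labels, so no member can be given a name or a role. For the same reason the tissue could not be checked by marker genes. In bulk muscle, fewer cells of a type and less RNA per cell cannot be told apart.

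Between 4168751 and 5117246 fragments were recovered from each post-molt library, and between 5810064 and 6768306 from each pre-molt library. The library size behind the deposited FPKM was not the total: as a part of the total it was 0.280 to 0.344 after the molt but 0.633 to 0.819 before it, and it followed the size factors of the authors' comparison table to within 0.969 to 1.04 of the mean ratio. The FPKM therefore did not add up to the same sum in each library. The sum was 2772125, 3422256 and 3753646 in post-molt replicates 1, 2 and 3, and 1377499, 1463554 and 1115974 in pre-molt replicates 1, 2 and 3. Every post-molt sum was above every pre-molt sum. The means were 3316010 ± 499312 and 1319010 ± 181021 (SD, n = 3), a ratio of 2.51, with a two-sided exact permutation p of 0.1, the smallest that 3 against 3 libraries allow. Without the 100 genes of highest mean FPKM the ratio was 1.70, and within those 100 genes it was 3.15. The members themselves summed to 21099 ± 1115 FPKM after the molt and 20621 ± 2113 FPKM before it (SD, n = 3), a ratio of 1.02.

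The level of the members had a median of 108 FPKM and ran from 50.1 to 457 FPKM. Their SD over mean ran from 0.0745 to 0.20 with a median of 0.165. Most members lay near the limit: 88 were between 0.15 and 0.2, 41 between 0.1 and 0.15 and 6 between 0.05 and 0.1. There were 50 members above 0.18 and 51 genes of the same level just beyond the limit, from 0.20 to 0.22, so the limit passed through a continuous range. Over all 1125 mid-level genes the quartiles of SD over mean were 0.251, 0.352 and 0.540. The highest of the 6 values of a member was a median of 1.58 times the lowest (range 1.22 to 1.90), against 2.85 times in the 990 other mid-level genes. The plot of level against spread shows the members as the lower edge of a broad cloud.

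**Figure D1:**
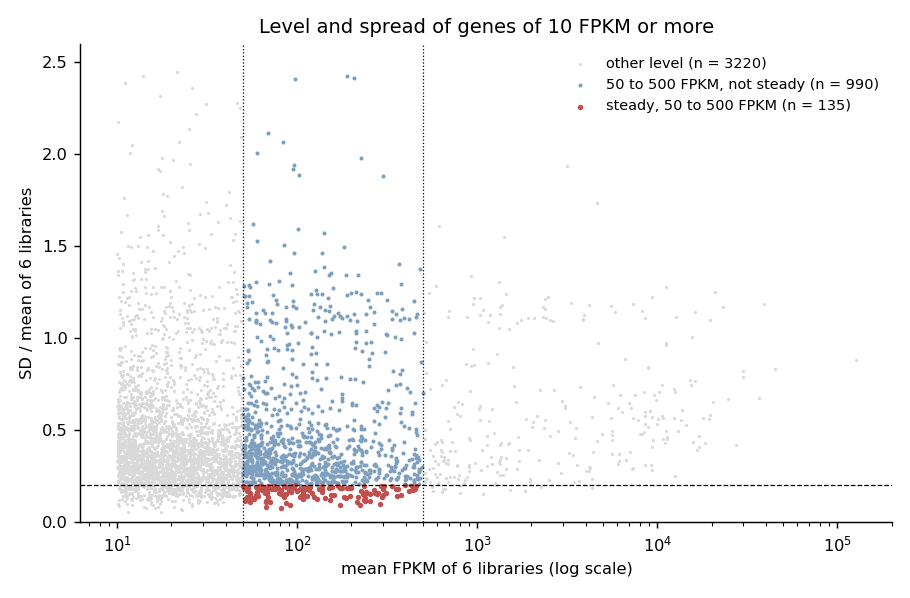
SD over mean of the 6 FPKM values (vertical) against mean FPKM (horizontal, log scale) for genes of 10 FPKM or more outside the 5 chromosomes left out, 1 point per gene. The dashed line is the limit of 0.2 and the dotted lines are 50 and 500 FPKM: the 135 members lie under the dashed line, and 990 mid-level genes lie above it without a gap.

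The steadiest member was evm.TU.CM024100.1.602, on chromosome CM024100.1, with 74.2, 85.8 and 90.6 FPKM after the molt and 76.7, 81.4 and 78.9 FPKM before it replicates 1 to 3. The pre-molt values lay inside the post-molt range, and the SD over mean was 0.0745. These values rested on 91 to 116 fragments per library after the molt and 266 to 347 before it, and counting alone would give an SD over mean of 0.0837, so the gene's measured spread did not exceed its counting error. Next came evm.TU.CM024158.1.105, with 70.8, 63.0 and 73.8 FPKM after the molt and 70.2, 59.4 and 66.4 FPKM before it. Here too the stages overlapped, with replicate 2 the lowest of each stage (SD over mean 0.0800). The merged model evm.TU.CM024128.1.304_evm.TU.CM024128.1.305 was measured far more deeply, on 811 to 1360 fragments in each post-molt library and 3246 to 3863 in each pre-molt one. It had 225, 203 and 202 FPKM after the molt and 231, 257 and 228 FPKM before it (SD over mean 0.0912). Although its spread was among the lowest, its stages did not overlap: every post-molt value was below every pre-molt value, at a ratio of 0.881.

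The other members under 0.1 were evm.TU.CM024144.1.103, evm.TU.CM024100.1.641 and evm.TU.CM024118.1.366. The first had 101, 83.4 and 79.3 FPKM after the molt and 94.1, 91.0 and 97.8 FPKM before it (ratio 0.933). Its post-molt values spread on both sides of the pre-molt values. The second had 202, 157 and 173 FPKM after the molt and 175, 177 and 157 FPKM before it (ratio 1.05), with post-molt replicate 1 the highest. The third had 297, 259 and 266 FPKM after the molt and 318, 264 and 319 FPKM before it (ratio 0.911), with pre-molt replicate 2 within the post-molt range and the other pre-molt values above it.

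**Figure D2:**
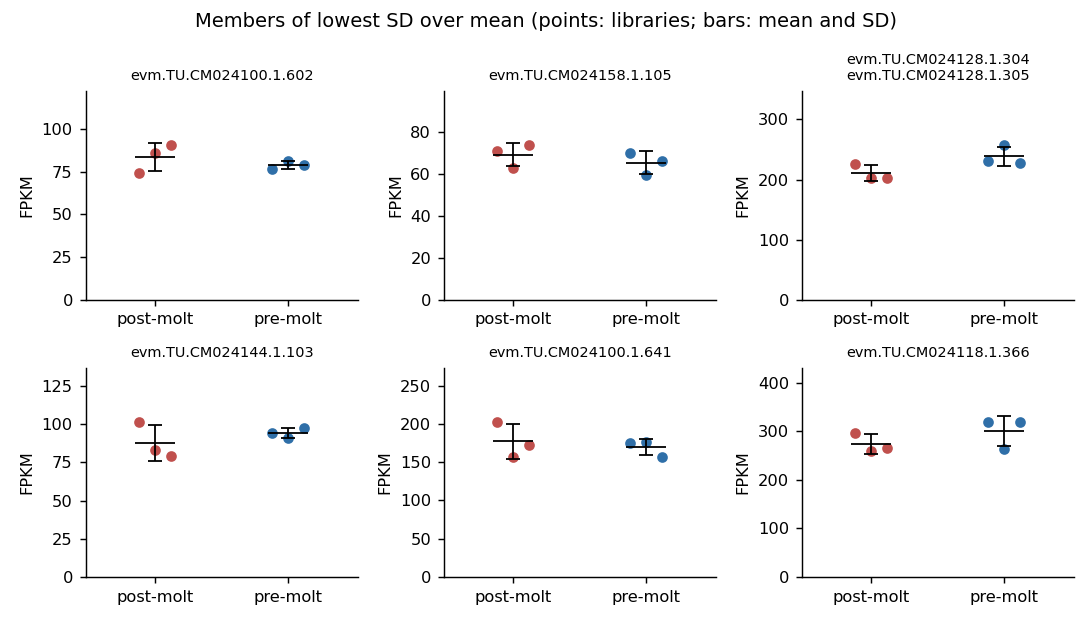
FPKM (vertical, from 0) of the 6 members of lowest SD over mean, 5 predicted genes and 1 merged model, in the post-molt and pre-molt stages. Points are libraries, and bars are the mean and SD (n = 3). The stages overlap in 5 panels and stand apart in that of evm.TU.CM024128.1.304 and 305, with post-molt below pre-molt.

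At the limit on the spread, the predicted members just inside were evm.TU.CM024127.1.421 (SD over mean 0.20, mean 398 FPKM) and evm.TU.CM024156.1.498 (0.199, 97.2 FPKM). The former had 397, 418 and 469 FPKM after the molt and 338, 488 and 277 FPKM before it. Its spread came mostly from the pre-molt libraries, which enclosed all post-molt values. The genes just outside were evm.TU.CM024102.1.211 (0.20, 424 FPKM) and evm.TU.CM024099.1.11 (0.201, 75.5 FPKM), both with overlapping stages. At the lower limit on the level, evm.TU.CM024167.1.326 (50.1 FPKM) and evm.TU.CM024113.1.148 (50.3 FPKM) were just inside, and the steady genes evm.TU.CM024126.1.223 (48.3 FPKM) and evm.TU.CM024165.1.146 (48.2 FPKM) just outside. The highest members were evm.TU.CM024143.1.309 (457 FPKM), evm.TU.CM024165.1.362 (454 FPKM) and evm.TU.CM024159.1.159 (452 FPKM). Beyond 500 FPKM the nearest steady genes were evm.TU.CM024097.1.332 (559 FPKM) and evm.TU.CM024120.1.73 (571 FPKM).

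The limit on the spread also bounds the stage ratio, so the following ratios show how wide the bound was. The ratio of post-molt to pre-molt mean had a median of 1.01 and ran from 0.738 to 1.38, and it was above 1 in 70 members. The highest ratio was that of evm.TU.CM024167.1.326, with 61.8, 56.8 and 55.8 FPKM after the molt and 44.8, 47.4 and 34.3 FPKM before it. The stages of this gene did not overlap (58.1 ± 3.22 and 42.2 ± 6.93 FPKM, SD, n = 3). The members evm.TU.CM024118.1.640 (ratio 1.34) and evm.TU.CM024160.1.129 (ratio 1.34) came next, also with every post-molt value above every pre-molt value. The lowest ratio was that of evm.TU.CM024156.1.498, with 93.7, 85.2 and 68.7 FPKM after the molt and 123, 99.9 and 113 FPKM before it. The members evm.TU.CM024160.1.440 (ratio 0.749) and evm.TU.CM024154.1.261 (ratio 0.753) followed, and in all 3 of these genes the post-molt values lay below the pre-molt values.

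In all, the stages did not overlap in 12 members (8.89%), 5 higher and 7 lower in post-molt, against 439 of the 990 other mid-level genes (44.3%) and 26.7% of all 17465 genes of 0.5 FPKM or more. In limma on log2(FPKM + 1), fitted over those 17465 genes, 0 members passed an adjusted p of 0.05 and a 2-fold change, and 0 reached an unadjusted p under 0.05. The background was 7.54% of all genes called. On the recovered fragments edgeR and DESeq2 each called 0 members as well, with 11.3% and 9.57% of all genes called. The rule used this contrast, so nothing is read from these counts.

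The limit over all 6 values also bounds the spread within a stage. The SD over mean within post-molt had a median of 0.144 in members and 0.306 in other mid-level genes, and within pre-molt 0.151 and 0.245. Low spread within the stages did not by itself place a gene among the members: 143 mid-level genes were at 0.2 or less in each stage taken alone, and 78 of these (54.5%) were members. The remaining 65 held their level within both stages but at different levels, 43 higher in post-molt with a median ratio of 2.05 and 22 lower with a median ratio of 0.621. Conversely, 107 members were within 0.2 in post-molt alone and 105 in pre-molt alone.

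The libraries did not weigh equally in the members' spread. Relative to each gene's own mean, the members had a median log2 difference of 0.08, 0.04 and −0.13 in post-molt replicates 1 to 3 and of 0.04, 0.12 and −0.19 in pre-molt replicates 1 to 3. Replicate 3 of each stage was thus the low one. Pre-molt replicate 3 was the lowest library for 58 members and post-molt replicate 3 for 41. The library farthest from the mean was pre-molt replicate 3 in 52 members, post-molt replicate 3 in 32 and pre-molt replicate 1 in 3. Post-molt replicate 3 had the highest and pre-molt replicate 3 the lowest FPKM sum of all libraries, whose part in this was not tested.

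When the rule was applied to 5 libraries, the number of genes meeting it depended on which was left out. Without post-molt replicate 3 it rose to 254 genes, of which 115 were among the 135 members, and without pre-molt replicate 3 to 208 genes, of which 117 were members. It was 143 (111 members) without post-molt replicate 1, 132 (107 members) without post-molt replicate 2 and 155 (103 members) without pre-molt replicate 2. Without pre-molt replicate 1 it fell to 103 genes, 98 of them members.

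The share of steady genes ran from 10.2% to 14.4% in the level bands up to 500 FPKM. By the same limit on the spread, 299 of 2923 genes of 10 to 50 FPKM were steady (10.2%, Wilson 95% interval 9.18% to 11.4%). In the bands of the rule the share was 61 of 537 genes at 50 to 100 FPKM (11.4%, 8.95% to 14.3%), 37 of 331 at 100 to 200 FPKM (11.2%, 8.22% to 15.0%) and 37 of 257 at 200 to 500 FPKM (14.4%, 10.6% to 19.2%). These 4 intervals overlap, which does not show the shares to be equal. Counting alone gave a median SD over mean of 0.151 at 10 to 50 FPKM and of 0.0465 at 200 to 500 FPKM. Counting error thus took up more of the limit in the lowest band. Above 500 FPKM it was lower, at 13 of 297 genes (4.38%, 2.58% to 7.34%), where the median SD over mean was 0.512 against 0.327 to 0.371 in the lower bands. The intervals treat genes as independent, which they are not.

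Counting error set a small part of the members' spread. Counting alone gave the members a median SD over mean of 0.0567 (0.0699 in the other mid-level genes), and with this variance subtracted the median was 0.152 (0.368 in the others). Only in 5 members was the measured spread below the counting error. The fewest fragments behind a member were 15 in a post-molt and 50 in a pre-molt library. Across the 135 members SD over mean and counting error correlated at −0.01 (Pearson) and −0.02 (Spearman). Across all 1125 mid-level genes the values were 0.16 and 0.17, over genes that share the same 6 libraries and are not independent replicates. Split by mean post-molt fragments into 3 groups of 375 mid-level genes each, the shallowest group held 32 members (8.53%), the middle 53 (14.1%) and the deepest 50 (13.3%). The shallowest group reached down to a mean of 0.333 post-molt fragments, so it also took in genes that were low after the molt only. This split therefore mixes depth with stage change. With counting variance subtracted, 51, 63 and 53 genes (13.6%, 16.8% and 14.1%) were within the limit.

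The recovered gene models of the members were longer, with a median length of 1269 bases (192 to 7138) against 957.5 bases in the other mid-level genes. A longer gene yields more fragments at the same FPKM, and the fewest fragments of a gene in any post-molt library had a median of 153 in members and 108 in the others.

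How steady the members were depended on how the libraries were scaled. The library sizes behind the deposited FPKM already followed the authors' size factors. TMM, median-of-ratios and the authors' size factors, which scale by typical genes, therefore changed each library by factors of 0.969 to 1.05 only. That members chosen on the deposited values hardly moved under them largely follows from this. The members' median log2 ratio of post-molt to pre-molt was 0.02 as deposited, −0.01 with TMM factors, 0.00 with median-of-ratios factors and 0.00 with the authors' size factors. Under these scalings 109, 120 and 118 members stayed within the limit of 0.2, and the rule then selected 115, 124 and 119 genes. Under upper-quartile scaling the median log2 ratio was −0.45, with 46 members within the limit. Under quantile normalization it was −0.66, with 21 members within it. After scaling to the FPKM sum without the 100 most abundant genes it was −0.74, with 6 members within it. The members were lower in post-molt under each of these latter scalings, all 135 of them except under quantile normalization, where it was 134.

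Scaling to a common FPKM sum, which is the TPM scale, had the largest effect. The factors were set around the mean library so that the limits of 50 and 500 kept their meaning. The median log2 ratio was then −1.29 (range −1.75 to −0.83), a median ratio of 0.409, and 0 members stayed within the limit. Their SD over mean rose to a median of 0.481 (0.324 to 0.628). On this scale every post-molt value was below every pre-molt value in all 135 members, as in 55.2% of all genes tested. The limma call on TPM took in 125 members, all lower in post-molt, beside 33.7% of all genes called lower. With quantile normalization 12 members were called lower, beside 3.55% of all genes. The common sum moved the median log2 ratio of all genes from −0.04 to −1.37 and that of the other mid-level genes from 0.33 to −0.96. For it a single factor per library was used, so the members were multiplied by the same 6 factors as all other genes.

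**Figure D3:**
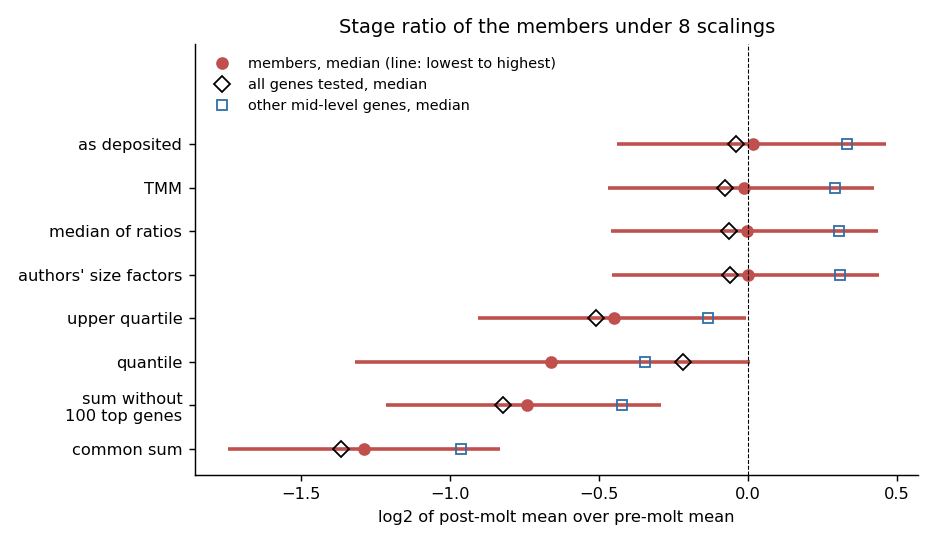
Log2 of post-molt mean over pre-molt mean (horizontal) under 8 scalings. Filled points are the median of the 135 members with a line from the lowest to the highest, diamonds the median of all genes tested and squares that of the other mid-level genes. Members sit near 0 in the upper 4 rows and between −0.45 and −1.29 in the lower 4.

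Among the predicted genes, the steadiest members under the common sum were evm.TU.CM024167.1.326, the member of highest deposited ratio, with an SD over mean of 0.324, and evm.TU.CM024160.1.129 with 0.344. They were followed by evm.TU.CM024144.1.268 (0.360) and evm.TU.CM024145.1.153 (0.365), with 1 other gene model between these (0.361). The latter 2 predicted genes had deposited ratios of 1.30 and 1.27. The first of the pair had 153, 162 and 133 FPKM after the molt and 107, 134 and 103 FPKM before it, so that its lowest post-molt value was just under its highest pre-molt value. None of the 4 came near the limit of 0.2.

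The rule applied at the common sum selected 27 genes, and 0 of them were members. As deposited these 27 genes were higher in post-molt, with a median ratio of 2.17 (1.95 to 3.12) and an SD over mean from 0.358 to 0.647. The steadiest of them was evm.TU.CM024134.1.399, chosen after its values were seen. It had 170, 195 and 259 FPKM after the molt and 78.7, 99.4 and 72.9 FPKM before it as deposited, 2.48 times higher in post-molt, and an SD over mean of 0.0834 at the common sum.

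**Figure D4:**
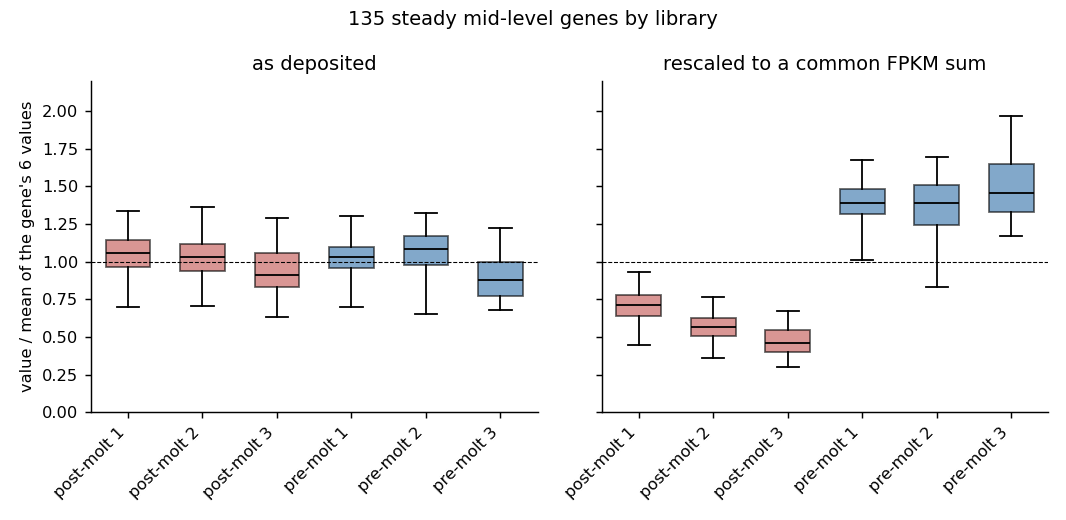
Value of each of the 135 members over the mean of its own 6 values (vertical), by library, as deposited (left) and rescaled to a common FPKM sum (right). Boxes are quartiles with the median, and whiskers reach the lowest and highest member. As deposited all 6 medians lie near 1 with replicate 3 of each stage lowest, and at a common sum the post-molt boxes lie below and the pre-molt boxes above 1.

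Counted in fragments, the members held 1.10%, 0.892% and 0.793% of the post-molt libraries and 2.06%, 2.05% and 2.19% of the pre-molt libraries. The groups did not overlap, at means of 0.929% ± 0.158 and 2.10% ± 0.0810 (SD, n = 3). As shares of the FPKM sum they held 0.650% ± 0.132 and 1.57% ± 0.0589. Genes of a steady deposited FPKM thus took a smaller share of each post-molt library, in which the FPKM sum was larger. Which of these scales follows the RNA content of a cell cannot be told from the files, since they hold no measure of it.

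A ratio of 2 members within a library does not depend on any scaling by 1 factor per library, which covers the scalings used here other than quantile normalization. Over the 9045 pairs of members the SD of the log2 ratio across the 6 libraries had a median of 0.29 (quartiles 0.22 and 0.37, highest 0.57). Over 464166 pairs of other mid-level genes, from 964 of the 990, the median was 0.91. The 27 genes steady at the common sum were as close to each other, with a median of 0.29, but members set against them gave 0.70. All of these values follow from the limits that chose the sets, the larger value between the sets included, since the scales on which they were chosen differ between the stages.

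The members were spread widely over the genome. Outside the chromosomes left out, 66 chromosomes had mid-level genes and 55 of them had a member. There were 18 chromosomes with 1 member, 28 with 2 or 3 and 9 with 4 or more. Other gene models were placed on a chromosome only if the authors' comparison listed them, and it held 0 members. The number expected on a chromosome was taken from the steady share of the level band of each of its mid-level genes, these models included. On 60 of the 66 chromosomes the number found lay within 2 genes of it, a wide margin where few members were expected. The 11 chromosomes without a member had 1.98 or fewer expected, so they lay within this margin in any case. The shares include the members themselves, so over all mid-level genes the numbers found and expected are equal by construction. The variance of the numbers found (2.73) was above their mean (1.94). The expected numbers themselves differed, from 0.225 on CM024109.1 to 4.11 on CM024097.1, so that excess cannot show whether members clump on chromosomes. Most members were found on CM024104.1, with 8 of 29 mid-level genes against 3.46 expected (2.31 times), and on CM024100.1, with 7 of 29 against 3.58 (1.95 times). The latter holds the steadiest member, evm.TU.CM024100.1.602, and another of the first 6, evm.TU.CM024100.1.641. On CM024154.1 there were 5 of 21 against 2.59. At the other end, CM024097.1 had 2 of 35 against 4.11, and CM024101.1 had 0 of 17 against 1.98.

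**Figure D5:**
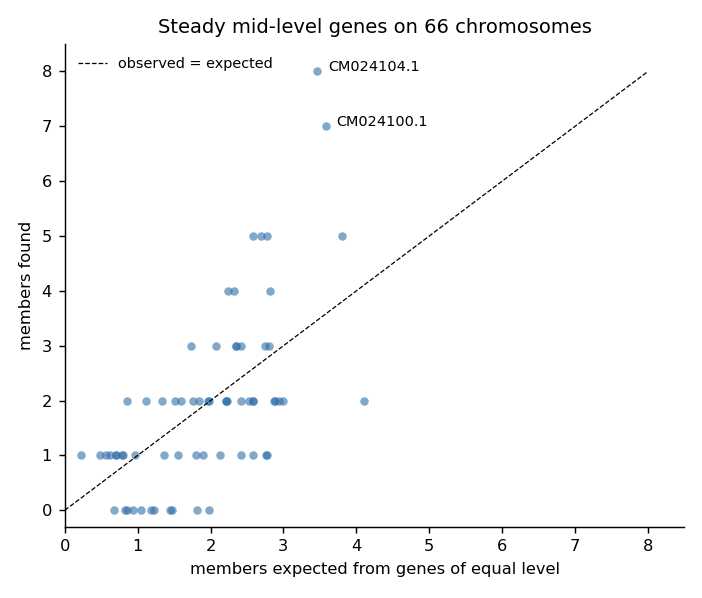
Members found on each of 66 chromosomes (vertical) against the number expected from mid-level genes of equal level (horizontal), 1 point per chromosome. The dashed line marks equal numbers: CM024104.1 (8 found) and CM024100.1 (7 found) lie farthest above it, and 11 chromosomes lie at 0.

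On the 5 chromosomes left out, 12 of 138 mid-level genes met both limits against 16.8 expected (0.715 times). The lowest was CM024135.1 with 1 of 40 against 4.94, while CM024166.1 had 5 of 33 against 3.97. By kind of ID, 126 members were predicted genes of 1 model (122 expected), 2 were merged models, 1 lay on a scaffold and 6 were other gene models (10.1 expected from 84 such mid-level genes). Of these 84 models 49 had no chromosome, and all 6 members were among them. The rest were listed in the authors' comparison as genes that passed its test. That comparison held 0 members, so these models added to the expected number only.

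Among 953 pairs of neighbouring mid-level predicted genes of a chromosome, 15 pairs were both members, and the steady share squared gives 14.6. Among all 13370 neighbouring pairs of listed predicted genes, 8 pairs were both members, where the same product gives 1.18. The latter product does not allow for level, whereas the former takes genes of equal level only. The longest stretch held 5 members on CM024104.1, numbers 273, 274, 278, 279 and 280 in the order of the gene IDs, with no other mid-level predicted gene between them. The genes evm.TU.CM024104.1.278, 279 and 280 were also consecutive among all listed genes. The first of these 3 had 249, 270 and 203 FPKM after the molt and 324, 309 and 267 FPKM before it, with only post-molt replicate 2 reaching into the pre-molt range. The second had 256, 275 and 200 FPKM after the molt and 254, 236 and 201 FPKM before it. The third had 258, 228 and 182 FPKM after the molt and 239, 197 and 195 FPKM before it. In both of the latter the stages overlapped, and replicate 3 was the lowest library of each stage in all 3 genes. The members evm.TU.CM024104.1.273 and evm.TU.CM024104.1.274 were lower, at means of 67.7 and 53.5 FPKM. Whether neighbours share sequence, and so reads, was not analysed here.

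The authors' comparison of the 2 stages lists genes that passed its test, 8.99% of all genes in the FPKM table. It held 0 members and 289 of the 990 other mid-level genes (29.2%). It used the same libraries and contrast as the rule, so nothing is read from that count. Steps of the molting cycle that lie between or beyond these stages were covered by lists of genes that changed in both expression and chromatin accessibility between neighbouring stages. These lists rest partly on the same libraries. In any of them stood 13 members, 9.63% of the members and 1.44% of the listed genes, against 121 (12.2%) of the other mid-level genes and 4.69% of all genes in the FPKM table. Of the members, 5 were listed as down-regulated for the step between post-molt and inter-molt, and 5 for that between pre-molt and molt. As up-regulated, 3 were listed for the step between molt and post-molt and 2 for that between inter-molt and pre-molt. The gene evm.TU.CM024144.1.103, among the 6 steadiest here, was listed both as down-regulated from pre-molt to molt and as up-regulated from molt to post-molt. Of the stretch on CM024104.1, evm.TU.CM024104.1.279 was listed for the latter step and evm.TU.CM024104.1.280 for the former. The members evm.TU.CM024107.1.333 (SD over mean 0.105) and evm.TU.CM024141.1.156 (0.114) were listed as down-regulated from post-molt to inter-molt.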

How the data were processed

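The authors cleaned the reads, aligned them with HISAT2 2.0.5 and counted uniquely aligned fragments of mapping quality 10 or more with featureCounts 1.5.0-p3. Per the methods, FPKM are per kilobase of exon model and per mapped fragments of the library, but the library size behind the deposited values was not the total of recovered fragments. The reason, and the use of strand, are not given in the sources used here. FPKM were deposited by the authors for 18729 genes, each reaching 1.00 in some library. They also deposited a comparison of 1684 genes with a normalized signal per library (counts divided by a size factor), gene lengths, log2 fold changes and p-values. Its fold changes and p-values were not used. The 6 FPKM columns carry another tissue prefix than the titles and were mapped by stage letter and number. Each matched the signal column of that name up to 1 factor per library and the length.

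The signal steps and FPKM gave whole fragments for 100% of values (tolerance 0.001). Of 1684 known lengths 98.6% came out exact and 23 as a fraction. The number of value columns of no sample was 0. The chromosome and order of a gene were read from its ID, and that of other models from the authors' table, where given. For 49 mid-level models no chromosome was given, and they were kept. The Wilson intervals cover the sampling of genes only, and neither the counting error of fragments nor differences between crabs.

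Genes of 0.5 FPKM or more on average were tested with limma 3.58.1 (R 4.3.3, trend, stage as the only term) on log2(FPKM + 1), adjusted by Benjamini-Hochberg and called at an adjusted p of 0.05 or less and a log2 change of 1 or more. Alternatives were edgeR 4.0.16 and DESeq2 1.42.0 on recovered fragments, other scalings, limits, pseudocounts (0.1 and 5), a replicate block and each library left out. All pairs of libraries differed by more than sampling noise (lowest chi-square per degree of freedom 12.5). The recovery and the fits were tested on simulated data.

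The members, lists and tests were chosen with earlier results of these data known. Named genes are predicted genes and merged models of such genes, chosen by rule: the 6 of lowest SD over mean, 2 on each side of each limit, the 3 of highest mean, the 3 of highest and of lowest ratio, the 4 steadiest at a common sum, the longest stretch of neighbours, and up to 4 members in a list of the study.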

Additional observations from a re-analysis of the deposited data

How the results depend on the processing

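Of 94 alternatives, 65 left their value within the set margin and 29 moved it. The margin differed by result, for example a set fold factor for counts of genes and the Wilson interval for the steady share. Some values could hardly move. The rule bounds the count of members called under scalings near the deposited one, and the FPKM sum counted as kept whenever its sign held. The tally is thus no measure of how robust the results are. The number of steady mid-level genes (135) was 27 at a common FPKM sum, 88 at the sum without the 100 most abundant genes, 47 with a limit of 0.15, 274 with 0.25, and 255 for a level of 25 to 1000 FPKM. It ran from 103 to 254 when 1 library was left out. The steady share (12%) was 2.32% at the common sum, 8.89% with quantile normalization, 10.2% with TMM factors, 9.77% with upper-quartile scaling, 7.83% at the sum without the top 100 genes, 4.18% with a limit of 0.15, 24.4% with 0.25 and 14.8% with counting variance subtracted, and 9.0% to 23.0% when 1 library was left out. The members' median log2 ratio (0.02) was −1.29, −0.66, −0.45 and −0.74 at the common sum, quantile, upper-quartile and top-100 scalings, and −0.05 to 0.10 when 1 library was left out. Upper-quartile scaling, the top-100 sum and the authors' size factors were chosen after seeing the data.

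Over all genes, limma called 1316 as deposited and 6490 on TPM. It called 783 without pre-molt replicate 1, 803 without pre-molt replicate 3 and up to 1406 without post-molt replicate 3. Members called were 0, but 125 on TPM and 12 with quantile normalization, and 0 to 0 when 1 library was left out. The members' share of fragments was lower in post-molt by a difference of −1.17 percentage points, and −0.919 for the FPKM share (−1.26 to −1.10 when 1 library was left out). The difference in FPKM sum, 1997000, then ran from 1778180 to 2268940. Pairs of neighbouring members were 8 rather than 15 when all listed predicted genes were counted as neighbours.

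With a replicate block limma called 1003 genes and 0 members. Over all genes tested, samples of the same number did not deviate together (correlations −0.03, −0.03 and −0.05). Samples of unlike number gave values of similar size (−0.03 to 0.06). Such small correlations cannot show whether the numbers pair the samples. With 3 libraries per stage and as few as 15 fragments behind a value, an SD over mean near 0.2 is itself loosely known, and members near the limit change with the library left out.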

Other observations

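Among the 9045 pairs of members, the pair whose ratio varied least was evm.TU.CM024155.1.150 and evm.TU.CM024099.1.59, which lie on different chromosomes. The pair was singled out after its values were seen. The former had 306, 297 and 275 FPKM after the molt and 243, 323 and 212 FPKM before it, and the latter 95.4, 92.7 and 86.2 FPKM after the molt and 75, 101 and 66.3 FPKM before it. Both were highest in pre-molt replicate 2 and lowest in pre-molt replicate 3, and their ratio stayed between 3.19 and 3.25 in the 6 libraries. The SD of the log2 ratio was 0.0087, where counting alone gives 0.13, so a value this low is below what the depth can resolve.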
